A study of Rattus norvegicus with 10 samples.

Results

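The 10 genes described here belong to hepatic glucose production and to the glucocorticoid response: G6pc1 (G6pc in older annotation), Pck1, Fbp1, Tat, Sds, Ppargc1a, Irs2, Fkbp5, Tsc22d3 and Sgk1. Their probes were found by looking up the RefSeq accession that the array gives for each probe and keeping those that belong to 1 of the 10 symbols, with no use of measured values. The genes themselves were chosen with earlier results of these data known. All 10 symbols were found, among 13837 genes that could be named this way, on 19 probes. Probes entered the test where at least 1 group had all of its arrays well above background, and 17 of the 19, covering all 10 genes, passed. The other 2 were dim probes of Irs2.

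The study asked how liver gene expression differs after sulfur mustard (SM), an alkylating vesicant, and whether a plant mixture given afterwards is accompanied by a different profile. Livers of male Sprague Dawley rats were profiled on one-colour Agilent whole-genome rat arrays, with 1 array per rat and 10 arrays in all. The control group held 3 rats that received the solvent, propylene glycol. The SM group held 4 rats given SM under the skin at 3.5 mg/kg, which is 0.7 of the LD50. The SM + MSTF group held 3 rats given the same SM dose and, 1 h later, 120 mg/kg of MSTF into the stomach. MSTF combines total flavonoids of Anemarrhena asphodeloides with salvianolic acids, which come from Salvia miltiorrhiza. Livers were collected at 24 h in all groups. The sources used here give the rats' weight but not their age. No group received MSTF without SM, so an MSTF difference can only be read on top of SM. The paper describes no dosing of water into the stomach for control or SM rats. An MSTF difference may therefore include the dosing procedure, which was not tested. Feeding before collection and the time of day of collection are not stated.

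Between meals the liver releases glucose that it makes from lactate, glycerol and amino acids, and the enzymes at the irreversible steps of that route are controlled largely at the level of transcription. Glucagon, acting through cAMP, and glucocorticoids, acting through the glucocorticoid receptor, raise transcription of these enzymes and of amino acid catabolic enzymes, whereas insulin lowers it. The receptor also induces genes outside metabolism, several of which are used as readouts of glucocorticoid exposure in many tissues.

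On each array between 51.9% and 61.4% of probes were well above background, and the median ratio of spot signal to local background lay between 2.20 and 2.54. Normalized log2 signals of any pair of arrays correlated across probes with r from 0.977 to 0.991 within groups and from 0.969 to 0.988 between groups, where probes are not independent replicates. Hepatocyte markers were present throughout: 9 of 9 were tested, with the highest signal from the probe of Tf (transferrin). Slide and group were not crossed: the 4 SM arrays shared slide 2 with no other group, SM + MSTF replicates 1 and 2 were alone on slide 3, and SM + MSTF replicate 3 sat with the 3 controls on slide 1. An SM difference and a slide 2 difference cannot be told apart, and MSTF can be compared with control inside a slide through 1 array only.

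One array stood apart from the rest. Of 22986 tested probes with a value on every array, SM + MSTF replicate 3 had the highest value for 13.7% and the lowest for 18.5%, 32.2% together. The next array by this measure, SM replicate 2, came to 23.6%, and the lowest share was 14.5%. The members' differences that involve the SM + MSTF group are given below with and without this array.

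Promoter sequences were available from RefSeq for 8 of the 10 genes, as 12 start sites on the GRCr8 build, each spanning 250 bases before to 50 bases after the start. Those for Irs2 and Sds were not in the table. The 3 promoters printed here are those of the 12 that hold a cAMP response element, its shorter core or a forkhead element. These are letters by which the hormone-controlled factors of this route are known. The choice did not use array values. These 3 genes were all highest on the same array, as described further on, and whether the letters bear on that was not tested. The promoters of G6pc1 and Fkbp5, genes also highest on that array, held none of these elements, and neither did the other start sites of Tsc22d3. Sequences run 5′ to 3′ on the gene's strand, and capitals mark the motif letters. They are Pck1 on the plus strand (chr3:182348322-182348621), Ppargc1a on the plus strand (chr14:63634058-63634357) and the start site of Tsc22d3 listed as 3 on the minus strand (chrX:109009985-109010284).
Pck1: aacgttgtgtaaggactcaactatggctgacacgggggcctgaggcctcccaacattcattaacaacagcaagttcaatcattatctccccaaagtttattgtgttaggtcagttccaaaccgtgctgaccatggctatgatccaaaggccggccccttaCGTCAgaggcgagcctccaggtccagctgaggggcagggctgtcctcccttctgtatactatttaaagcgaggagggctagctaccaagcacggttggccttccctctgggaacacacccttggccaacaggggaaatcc
Ppargc1a: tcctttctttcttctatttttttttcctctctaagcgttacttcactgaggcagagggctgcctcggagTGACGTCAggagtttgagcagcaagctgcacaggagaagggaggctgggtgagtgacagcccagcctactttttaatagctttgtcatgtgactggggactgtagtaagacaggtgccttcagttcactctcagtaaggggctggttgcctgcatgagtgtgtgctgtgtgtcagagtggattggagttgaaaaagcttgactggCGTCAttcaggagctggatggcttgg
Tsc22d3: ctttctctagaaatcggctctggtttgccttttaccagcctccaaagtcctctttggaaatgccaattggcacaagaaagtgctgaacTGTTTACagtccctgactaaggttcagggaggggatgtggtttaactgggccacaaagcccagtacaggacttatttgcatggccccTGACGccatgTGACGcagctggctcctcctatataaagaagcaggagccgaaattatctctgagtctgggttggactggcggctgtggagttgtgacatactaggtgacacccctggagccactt

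Both strands were searched. The full cAMP response element TGACGTCA was in 1 of the 12 promoters, that of Ppargc1a, at position -181 from the start site, and in 1.83% of all 33469 promoters. Its shorter form TGACG, which overlaps the full element, was in 3 of the 12, those of Pck1, Ppargc1a and Tsc22d3, and in 21.2% of all promoters. The forkhead element TGTTTAC was in 1 of the 12, that of Tsc22d3, and in 3.78% of all. The glucocorticoid response hexamer TGTTCT was in none of the 12 windows and in 20.7% of all promoters, and its inverted repeat with a spacer of 3 bases was in none of the 12 and in 0.0149% of all. A match describes letters only, and a missing match says only that the letters are not in that window.

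Across the 3 comparisons no member passed the test, which was limma's moderated test with p adjusted over all 22991 tested probes, where a called probe needs both at least a 1.5-fold difference and an adjusted p under 0.05. For SM versus control limma called 0 of 10 members against 2.4% of all tested probes. At an unadjusted p under 0.05 it gave 1 of 10 against 16.4%, and the groups did not overlap for 2 of 10 against 17.9%. The study's own rule, which tests each probe by itself without adjustment and has the same fold minimum, gave 2 of 10 against 4.92%, and 0 of 10 after adjustment. For SM + MSTF versus control limma called 0 of 10 members and 0% of all probes, with 0 of 10 against 9.54% at an unadjusted p under 0.05, 1 of 10 against 15.4% without overlap, and 0 of 10 against 1.24% by the study's rule. For SM + MSTF versus SM limma called 0 of 10 against 1.26%, with 0 of 10 against 15.9% unadjusted, 0 of 10 against 14.7% without overlap, and 0 of 10 against 3.75% by the study's rule. With all arrays, none of these counts of members is above the share among all probes except the 2 of 10 by the study's rule and without overlap for SM versus control, which are the same pair of genes, Ppargc1a and Sgk1, and the latter share is close to that of all probes. Of the pair, Ppargc1a entered the test only through SM, the group where it is higher. Without SM + MSTF replicate 3, a count made after the data were seen, the unadjusted p was under 0.05 for 3 of 10 members against 12% of all probes in SM + MSTF versus control (Sgk1 higher, Irs2 and Fkbp5 lower), for 2 of 10 against 18.5% in SM versus control (Ppargc1a and Sgk1) and for 0 of 10 against 13.6% in SM + MSTF versus SM. In that setting SM + MSTF and control share no slide. A p that misses the threshold does not show that expression was alike, and the members were among the more variable genes: the median standard error of their SM versus control difference was 0.36 log2, against 0.15 over all tested probes. It was larger than the error of most probes for 9 members, led by Irs2, and smaller for Fbp1. The error is pooled over all groups, so SM + MSTF replicate 3 adds to it: without that array the medians were 0.26 and 0.14, 8 members were above the latter, and G6pc1 had the largest error (0.41).

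The glucose-producing enzymes come first. G6pc1 encodes the catalytic subunit of glucose-6-phosphatase, which releases free glucose in the last step. Its normalized log2 signal was 15.80, 16.41 and 14.42 in the controls, 16.27, 15.69, 15.70 and 16.15 in SM, and 15.70, 16.13 and 16.69 in SM + MSTF. All groups overlapped, control replicate 3 was the lowest array by 1.27, and SM + MSTF replicate 3 was the highest. Group means were 15.54 (n = 3, SD 1.02) in control, 15.95 (n = 4, SD 0.30) in SM and 16.18 (n = 3, SD 0.50) in SM + MSTF, an ascending order in which neighbours differ by less than their spread. A second tested probe of the gene had the same highest and lowest arrays.

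Pck1 encodes the cytosolic phosphoenolpyruvate carboxykinase, which commits oxaloacetate to glucose. Its values were 14.08, 15.14 and 14.00 in control, 13.71, 14.44, 13.70 and 14.20 in SM, and 13.86, 13.40 and 15.57 in SM + MSTF. Both the lowest and the highest array were in the SM + MSTF group, and the spread inside that group (SD 1.14) was larger than any difference between group means, which were 14.41, 14.02 and 14.28 for control, SM and SM + MSTF. The second Pck1 probe, averaged over 10 spots per array, again had SM + MSTF replicate 3 highest at 13.90 and SM + MSTF replicate 2 lowest at 11.95.

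Fbp1, fructose-1,6-bisphosphatase of liver, was the steadiest member. It measured 17.53, 17.54 and 17.55 in control, 17.66, 17.59, 17.43 and 17.54 in SM, and 17.89, 17.62 and 17.63 in SM + MSTF. The 3 SM + MSTF arrays lay above every control, while the SM arrays overlapped both groups, and the gap was small: 17.71 against 17.54, a difference of 0.17 log2 with a 95% interval from -0.06 to 0.41 (limma adjusted p = 0.631). With single arrays left out that difference ran from 0.08 to 0.22. The second Fbp1 probe placed the same groups apart, with a difference of 0.29. Its interval, before adjustment for the number of probes, ran from 0.01 to 0.57, and its adjusted p was 0.514.

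Tat and Sds break down amino acids whose carbon can enter glucose. Tat, tyrosine aminotransferase, a classical glucocorticoid-induced liver enzyme, measured 9.88, 10.24 and 9.48 in control, 9.98, 10.28, 10.17 and 10.48 in SM, and 10.61, 9.88 and 10.05 in SM + MSTF. The groups overlapped, with means of 9.87, 10.23 and 10.18 in that order and SDs of 0.38, 0.21 and 0.38. Sds, serine dehydratase, measured 9.58, 9.60 and 9.34 in control, 8.98, 8.09, 9.10 and 9.49 in SM, and 9.06, 8.94 and 10.08 in SM + MSTF. Of the 4 SM arrays 3 were below every control and SM replicate 4 was inside the control range, while SM + MSTF replicates 1 and 2 were below the controls and replicate 3 was above them. Sds means ran from 8.91 (SD 0.59) in SM through 9.36 (SD 0.63) in SM + MSTF to 9.51 (SD 0.14) in control, with neighbours closer than their spread.

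Ppargc1a and Irs2 regulate the route. Ppargc1a encodes PGC-1alpha, a coactivator that raises gluconeogenic transcription in fasting, and its probe was dim. It measured 4.43, 3.99 and 3.83 in control, 5.70, 4.83, 4.68 and 5.56 in SM, and 5.44, 3.78 and 6.05 in SM + MSTF. Every SM array was above every control, whereas SM + MSTF held the lowest and the highest of the 10 arrays. The probe was well above background on 1 of 3 control, 4 of 4 SM and 2 of 3 SM + MSTF arrays, so it entered the test through the SM group alone. Means were 4.08 (n = 3, SD 0.32) in control, 5.09 (n = 3, SD 1.18) in SM + MSTF and 5.19 (n = 4, SD 0.51) in SM, and the last pair differed by less than their spread.

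Irs2 encodes an insulin receptor substrate, which carries the insulin signal and is itself raised in fasting. Its brighter tested probe measured 8.68, 8.75 and 8.29 in control, 8.78, 8.002, 7.48 and 8.09 in SM, and 7.79, 7.81 and 10.45 in SM + MSTF. SM + MSTF replicate 3 was 1.67 log2 above the next array, and the other 2 arrays of its group were below every control. The less bright tested probe did not show this: it had 5.55 on that array, inside the range of 4.51 to 6.20 over all 10. With all arrays its differences between groups had the opposite sign in each comparison. Over SM + MSTF replicates 1 and 2 its mean was 4.98, below 5.43 in control and 5.65 in SM, as for the brighter probe. Statements on Irs2 with all arrays therefore rest on 1 probe.

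Fkbp5, Tsc22d3 and Sgk1 stand for the glucocorticoid response outside glucose production. Fkbp5, a receptor co-chaperone induced by the receptor it restrains, measured 9.84, 9.89 and 10.08 in control, 9.52, 9.61, 9.76 and 9.85 in SM, and 9.37, 9.71 and 11.08 in SM + MSTF. SM + MSTF replicate 3 was 1.00 above every other array, and the remaining 9 arrays spanned 9.37 to 10.08. All 3 Fkbp5 probes had the same array highest, by 0.92 to 1.08 over the next array.

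Tsc22d3, which encodes the anti-inflammatory protein GILZ, measured 9.94, 10.61 and 9.96 in control, 10.03, 10.08, 10.42 and 10.08 in SM, and 9.82, 9.93 and 11.07 in SM + MSTF. Again SM + MSTF replicate 3 was highest and its 2 group neighbours were the lowest arrays. The second Tsc22d3 probe had the same highest array, but its lowest were control replicates 1 and 3 (5.81 and 5.86), with 6.12 and 6.33 on the neighbours, and its SM versus control difference was 0.33 where the brighter probe had -0.02. Sgk1, a kinase induced by glucocorticoids and also by cell stress, went a different way, with 9.36, 9.47 and 9.42 in control, 10.10, 9.68, 10.14 and 10.87 in SM, and 10.72, 10.33 and 9.02 in SM + MSTF. All SM arrays and SM + MSTF replicates 1 and 2 were above all controls, and SM + MSTF replicate 3 was the lowest of the 10 arrays. This split follows the slides. Slide 1, with the controls and SM + MSTF replicate 3, held 9.02 to 9.47, and slides 2 and 3 held 9.68 to 10.87. Whether slide or treatment gave the split was not tested. Sgk1 means were 9.42 (n = 3, SD 0.06) in control, 10.02 (n = 3, SD 0.89) in SM + MSTF and 10.20 (n = 4, SD 0.49) in SM, the last pair closer than their spread. Means of Fkbp5 ran from 9.68 in SM through 9.94 in control to 10.05 in SM + MSTF, and those of Tsc22d3 from 10.15 in SM through 10.17 in control to 10.27 in SM + MSTF. The SDs of the SM + MSTF arrays (0.90 and 0.69) are larger than these gaps, but the Fkbp5 gap between SM and control, 0.26, is larger than the SDs of both (0.15 and 0.13).

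**Figure D1:**
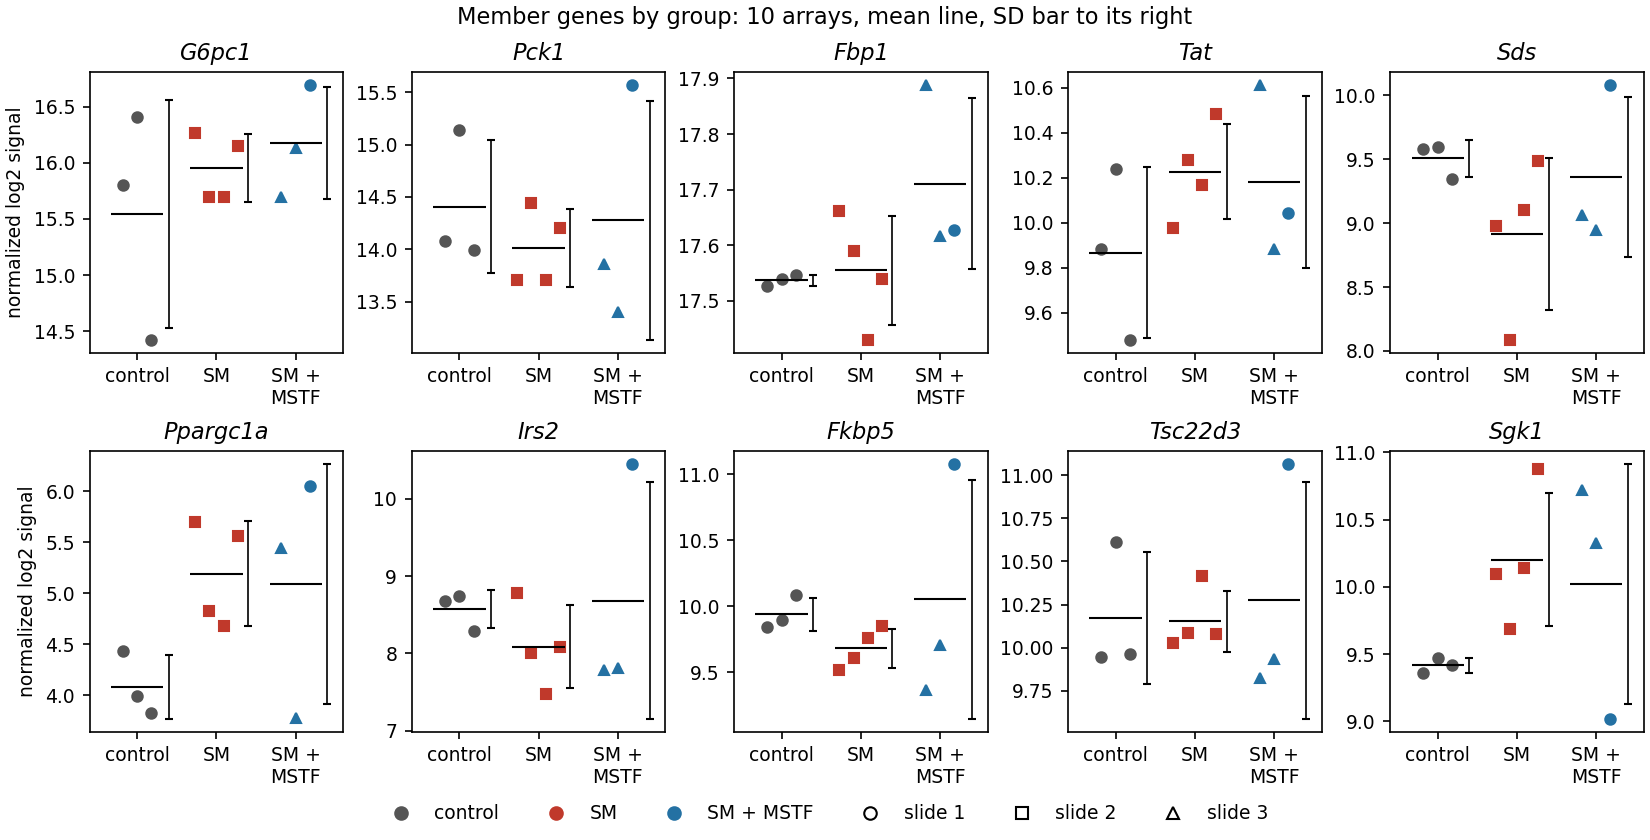
Normalized log2 signal of each of the 10 genes on each of the 10 arrays, by group, with points for arrays, the point's shape for its slide, lines for group means and bars for the SD. SM + MSTF replicate 3 is the highest array for 7 genes and the lowest for Sgk1.

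The comparison of SM with control asks what the vesicant does to these genes at 24 h. Sgk1, well above background on every array, was 0.78 log2 or 1.72-fold higher in SM (SE 0.38, 95% interval -0.08 to 1.64, limma adjusted p = 0.355), with 4 of 4 SM arrays above all controls. They were above every array of slide 1, SM + MSTF replicate 3 included, so SM and slide cannot be told apart here. Ppargc1a was 1.11 log2 higher (SE 0.48, 95% interval 0.03 to 2.19, limma adjusted p = 0.293), also in 4 of 4 SM arrays, but 2 of the 3 controls were not well above background for this probe, so the size of the difference is uncertain. With normexp background correction, which adds an offset of 50 to the signal, it was 0.25. Neither passed the adjusted test. The enzymes pointed both ways, with G6pc1 at 0.41, Tat at 0.36 and Fbp1 at 0.02 log2, and Pck1 at -0.39 and Sds at -0.59. Irs2, Fkbp5 and Tsc22d3 had -0.49 (-0.13 for the mean of the Irs2 probes), -0.26 and -0.02. Of the 10 members 5 were higher and 5 lower, the median of their differences lay within 0.01 log2 of 0, and the median over all tested probes was 0.03. Some of these rest on 1 control: G6pc1 has -0.15 without control replicate 3, and Pck1 -0.02 without control replicate 2.

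For SM + MSTF versus control, which asks whether treated livers differ from unexposed ones, Ppargc1a had 1.01 log2 (95% interval -0.15 to 2.17; 0.28 with normexp), G6pc1 0.63 (-0.38 to 1.64) and Sgk1 0.60 (-0.31 to 1.52). The others lay between -0.15 for Sds and 0.31 for Tat. In all 8 members were higher and 2 lower, with a median of 0.14 against 0.00 over all probes, and the smallest adjusted p from limma was 0.572. G6pc1 has 0.07 without control replicate 3. Much of the rest depends on SM + MSTF replicate 3. Without that array Pck1 has -0.77, Irs2 -0.77, Fkbp5 -0.40 and Tsc22d3 -0.29, the last 3 with the sign turned, Sds has -0.505, Ppargc1a 0.53, Tat 0.38, G6pc1 0.37 and Fbp1 0.22, and Sgk1 moves to 1.11 (limma adjusted p = 0.177, range over all alternatives 0.177 to 0.898). Without it limma still called 0 of 10 members, while its count over all probes went from 0 to 248. The treated arrays are then all on slide 3 and the controls all on slide 1. A treatment difference and a slide difference cannot be told apart in that setting. A fit with slide as a fixed term sets 1 treated array, replicate 3, against the 3 controls on its slide, and assumes that this lone array varies like the other groups. It therefore repeats what was seen of that array and is no test of the group: Fkbp5 had 1.14 (limma adjusted p = 0.0319, range over all alternatives 0.0319 to 1), Pck1 1.16, Sds 0.57 and Sgk1 -0.40, and limma called 1 member and 290 probes.

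SM + MSTF versus SM asks whether MSTF given after SM is accompanied by a difference. Differences were 0.60 for Irs2 (-0.48 for its less bright probe and 0.06 for the mean of its probes), 0.45 for Sds, 0.37 for Fkbp5, 0.26 for Pck1, 0.22 for G6pc1, 0.16 for Fbp1 and 0.12 for Tsc22d3, and -0.05 for Tat, -0.10 for Ppargc1a and -0.18 for Sgk1. The other Fkbp5 probes had 0.36 and 0.75. The intervals are wide, from -0.73 to 1.92 for Irs2 and from -1.04 to 0.68 for Sgk1, so that for Irs2 and Sgk1 differences of 1.5-fold in either direction are not excluded. Those of Fbp1 (-0.07 to 0.38) and Tat (-0.54 to 0.45), before adjustment for the number of probes, stay inside 1.5-fold both ways. In all 7 members were higher and 3 lower, with a median of 0.19 against -0.02 over all probes, and the smallest adjusted p from limma was 0.448. Without SM + MSTF replicate 3 the signs turned for G6pc1 (-0.04), Pck1 (-0.38), Irs2 (-0.29), Fkbp5 (-0.14), Tsc22d3 (-0.27), Tat (0.02) and Sgk1 (0.32), while Ppargc1a had -0.58, Fbp1 0.20 and Sds 0.09. Both comparisons of SM + MSTF use the same treated arrays, so 1 array moves both.

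**Figure D2:**
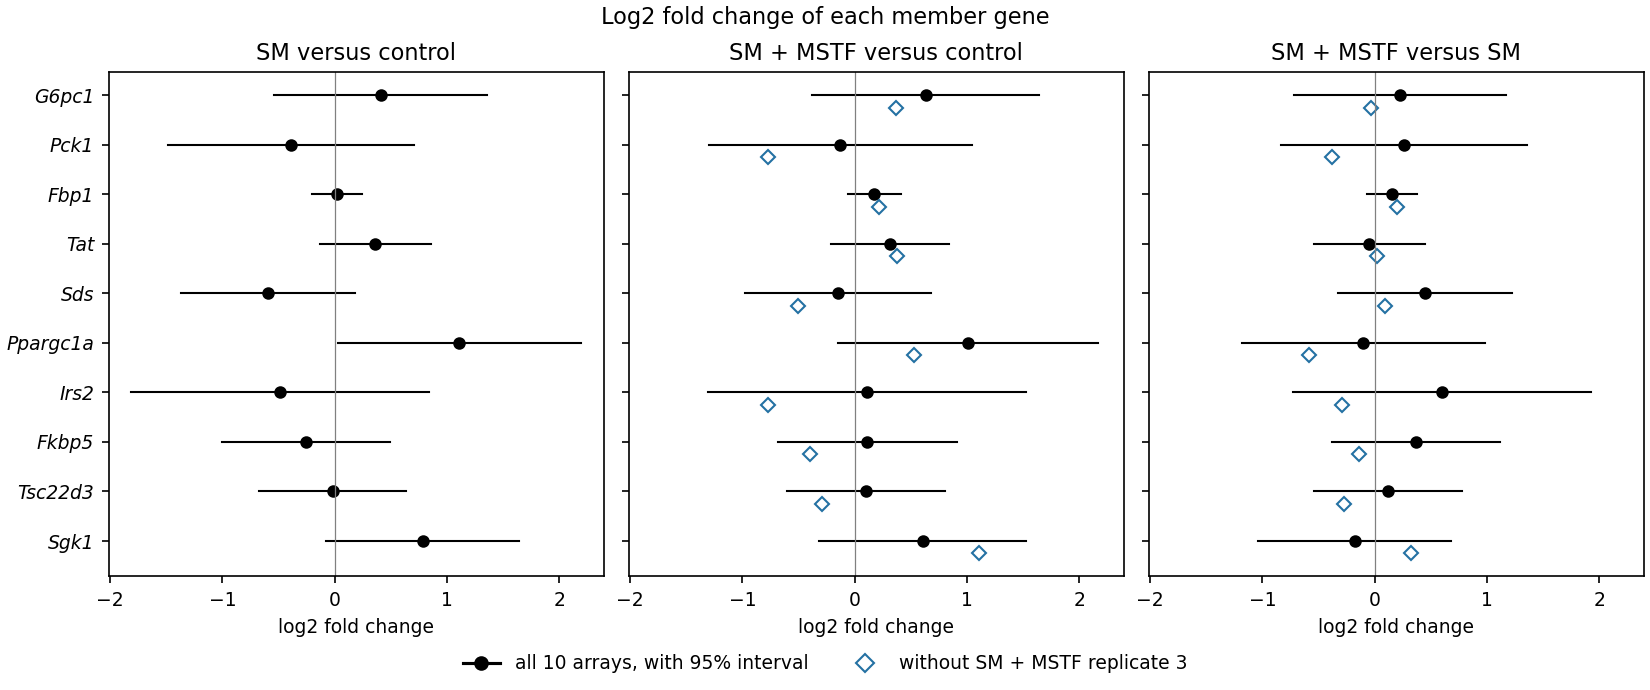
Log2 difference of each gene in the 3 comparisons with its 95% confidence interval from limma (black), and the value without SM + MSTF replicate 3 (open diamonds) for the comparisons of SM + MSTF. All plotted intervals include 0 except that of Ppargc1a for SM versus control, whose limits are not adjusted for the number of probes.

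The pattern that the members share is thus found in 1 array rather than in a group. SM + MSTF replicate 3 had the highest value of the 10 arrays for 7 of 10 members (G6pc1, Pck1, Sds, Ppargc1a, Irs2, Fkbp5 and Tsc22d3), 70% against 13.7% of all probes, and for 12 of the 17 tested member probes. The members were chosen with earlier results of these data known, and the array was picked after its values were seen. The count is therefore a description and no test. The count of 7 was the same with 75th percentile scaling, with the authors' deposited values, with another background correction and with the mean of a gene's probes, alternatives chosen after the data were seen. They reprocess the same scans and add no independent evidence. Against the mean of the SM + MSTF arrays on slide 3, replicate 3 was at least 2-fold higher for 6 members and at least 2-fold lower for 1, with a median difference of 1.13 log2. Over all probes the shares were 3.2% and 2.44%, and the median was -0.03. The largest ratios were 6.28 for Irs2, 3.83 for Pck1, 2.905 for Fkbp5, 2.28 for Tsc22d3 and 2.11 for Sds, while Sgk1 was lower by a log2 difference of -1.51. Ppargc1a is the other of the 6, but no ratio is given for it because its probe was not well above background on 1 of the 3 SM + MSTF arrays. The count depends on the probe. The second tested probes gave 1.48 for Irs2 and 1.58 for Tsc22d3, under 2-fold, and 3.43 for Pck1, and the other Fkbp5 probes gave 2.16 and 2.82. Against the mean of the controls that share its slide, replicate 3 was at least 2-fold higher for 5 members, again with Ppargc1a, for which 2 of the 3 controls were not well above background, and lower for 0, with a median of 1.02, where all probes gave 2.31%, 2.23% and -0.01. In log2, the other tested probes had 0.12 for Irs2, 0.98 and 1.35 for Fkbp5, 1.23 for Pck1 and 1.24 for G6pc1 against these controls. These are comparisons of 1 rat with 2 or 3, with no test, and whether the liver, its sampling or the array gave this profile was not tested.

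**Figure D3:**
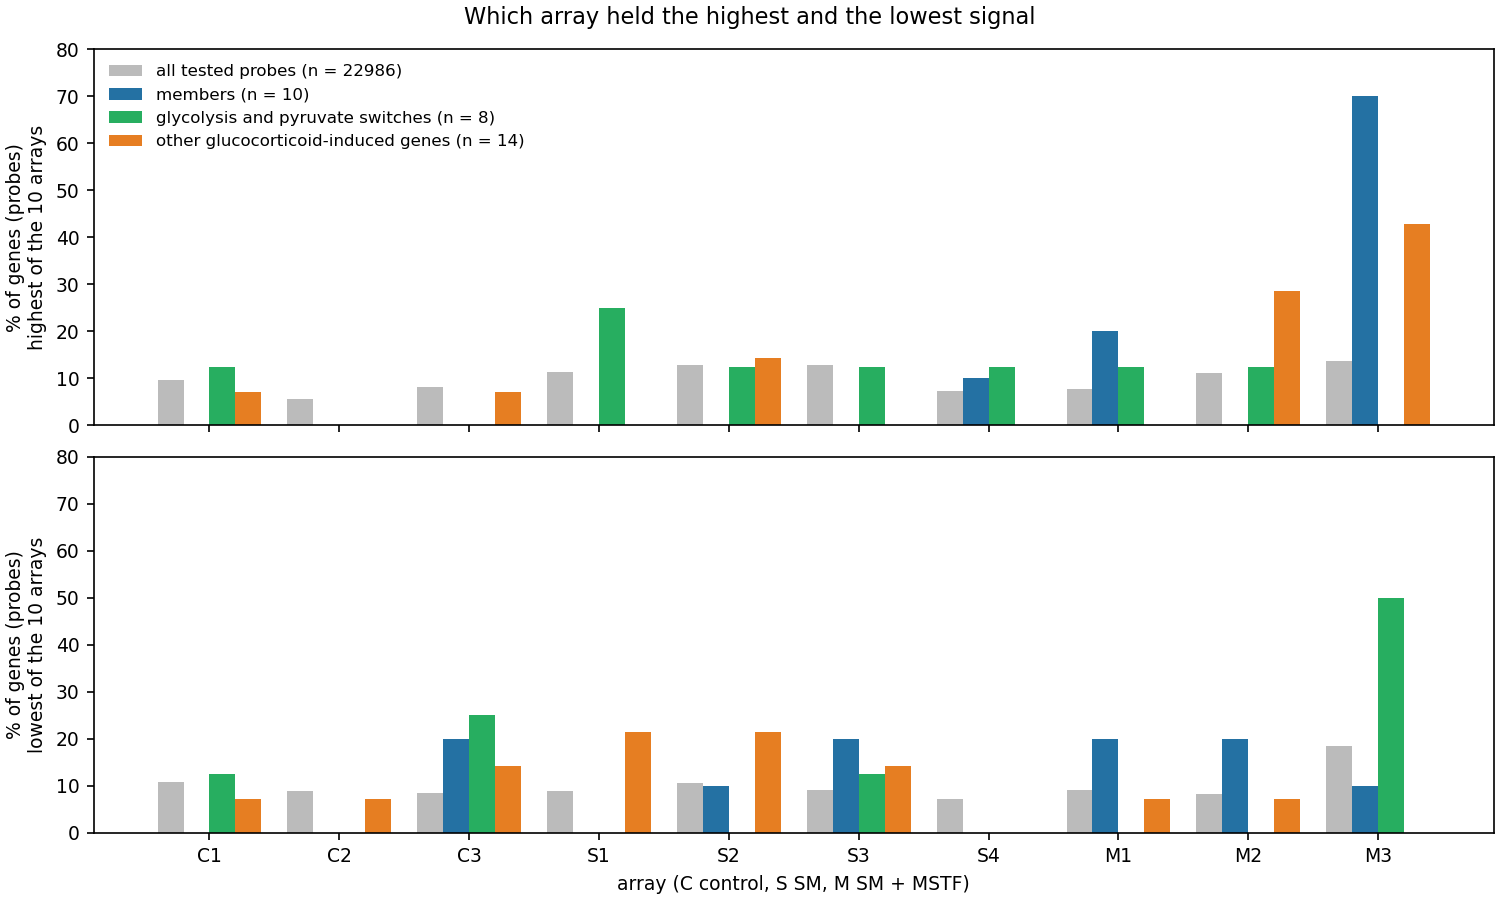
Percentage of genes for which each array was the highest or the lowest of the 10, for the members, glycolysis and pyruvate switches, other glucocorticoid-induced genes and all tested probes (C control, S SM, M SM + MSTF). SM + MSTF replicate 3 holds 70% of the members' highest values and 13.7% of those of all probes.

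Other genes of these routes were read on the same array, named here after their values were seen. Igfbp1, a liver gene raised by glucocorticoids and lowered by insulin, measured 15.07 there and at most 13.85 elsewhere. Zbtb16, a glucocorticoid-induced transcription factor, measured 7.78 there and at most 5.10 elsewhere, and was well above background on 1 of 3 control, 4 of 4 SM and 1 of 3 SM + MSTF arrays. Of 14 other glucocorticoid-induced genes tested, 6 were highest on that array (42.9%) and 0 lowest, and 4 were at least 2-fold above the slide 3 arrays, Zbtb16 among them, whose probe was not well above background on the slide 3 arrays. Klf9 reached 11.77, Cebpd 11.69, Nfkbia 11.73, and Per1 5.85, each above the other 9 arrays. Bcl6 was highest there too, at 13.44, but also stood high in control replicate 2 (12.87) and SM replicate 2 (13.01), with 9.13 to 10.87 in the rest. Others of the list were lower on that array than on both slide 3 arrays: Dusp1 (8.68), Ddit4 (4.93), Errfi1 (16.13), Anxa1 (9.24) and, by little, Lpin1 (6.36). Cdkn1a and Gadd45a were above both slide 3 arrays, and Angptl4 lay between them. Klf15, which drives amino acid breakdown in fasting, measured 13.18 there, 11.41 on SM + MSTF replicate 2 and 12.09 to 12.50 on the other 8 arrays.

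Pklr, liver pyruvate kinase, lay at the other end on that array, with 10.21 against 11.52 to 12.21 elsewhere. Of 8 tested genes of glycolysis and pyruvate switching 4 were lowest there (50%) and 0 highest. Besides Pklr, the only 1 at least 2-fold below the slide 3 arrays, they include Pdk1 and Pdk2, kinases that hold back pyruvate oxidation. Pdk4, a kinase of the same role, was not among the lowest. It measured 10.09 there, 8.99 and 10.12 on the slide 3 arrays, and 8.78 to 9.74 in control and SM. The remaining gluconeogenic enzymes went both ways on that array. There 4 of 16 were highest (25%) and 7 of 16 lowest (43.8%), against 13.7% and 18.5% of all probes. Fbp2, Pc, Pck2 and Slc37a4 were the highest, and Gpd1, at 9.23, was among the lowest. Of 12 amino acid breakdown enzymes 1 was highest, Tdo2 at 15.47, and 6 were lowest, Oat among them at 13.49. Among 20 genes of glucagon, insulin and fasting signalling 4 were highest and 5 lowest, the latter including Irs3 at 5.44, and of 7 genes of the receptor, its steroid supply and its chaperones 1 was highest and 1 lowest.

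**Figure D4:**
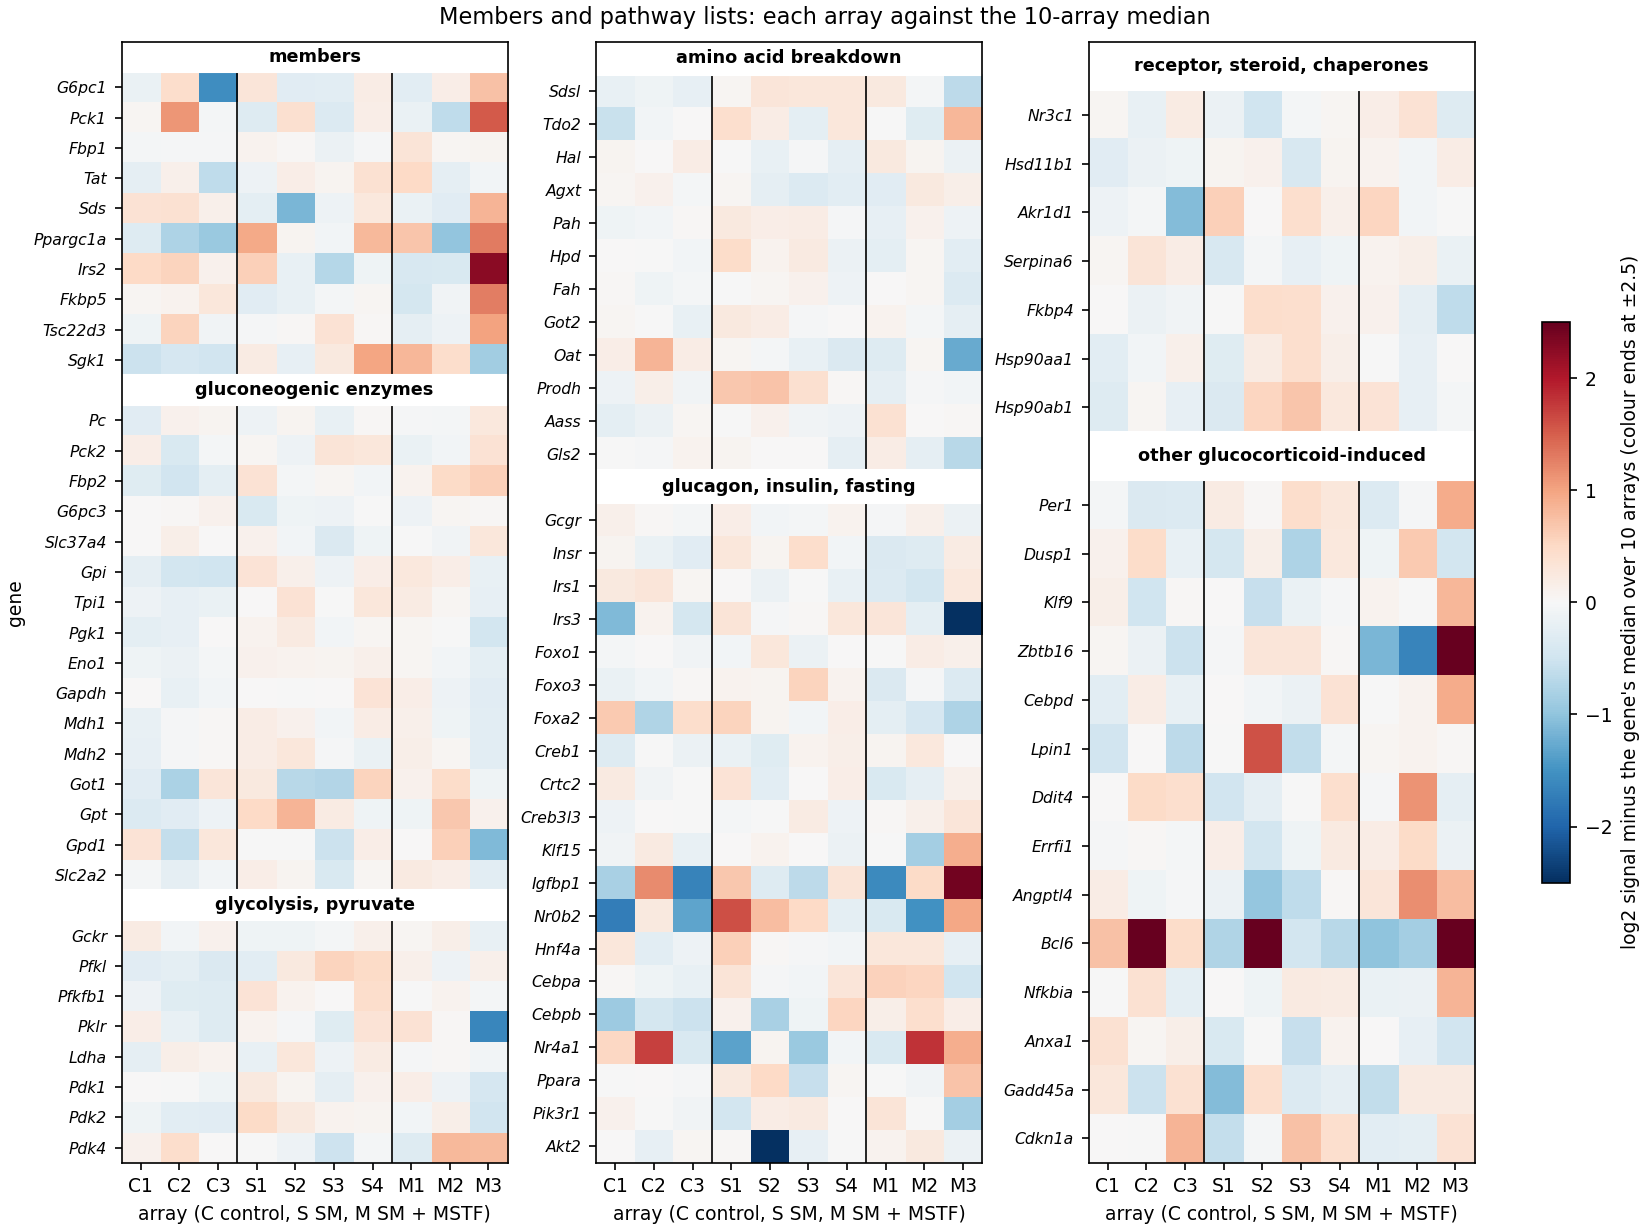
Log2 signal of each member and list gene on each array, relative to the gene's median over the 10 arrays, with genes in list order and arrays by group (C control, S SM, M SM + MSTF). The column of SM + MSTF replicate 3 departs from its group neighbours for most members, for Igfbp1 and Zbtb16, and in the other direction for Pklr and Irs3.

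Across groups none of the 6 pathway lists held a gene called by limma, in either direction and in any comparison, and the genes below passed the unadjusted p only, as did 16.4% of all probes for SM versus control, 9.54% for SM + MSTF versus control and 15.9% for SM + MSTF versus SM. In SM versus control 12 of 16 gluconeogenic genes were higher (median 0.17 log2, against 0.03 over all probes), 4 of them at an unadjusted p under 0.05: Gpt at 0.60, Gpi at 0.52, Fbp2 at 0.41 and Tpi1 at 0.33. Of these, Fbp2 entered the test only through SM and SM + MSTF, the groups where it is higher. The 4 lower genes of this list were G6pc3 at -0.20, Slc37a4 at -0.16, Gpd1 at -0.11 and Pc at -0.01, so the list did not move as a whole. Glycolysis and pyruvate switching had 6 of 8 higher (median 0.12), with Pfkl at 0.55, Pfkfb1 at 0.47 and Pdk2 at 0.44. Pfkfb1, the bifunctional enzyme that sets the level of fructose-2,6-bisphosphate, had the smallest adjusted p of the pathway genes in this comparison (0.085) but a difference under the fold minimum, and its 4 SM arrays (12.73 to 13.16) were all above the controls (12.40 to 12.59). Amino acid breakdown had 8 of 12 higher (median 0.11), with Prodh, proline dehydrogenase, at 0.48. Hormone and fasting signalling had 15 of 20 higher (median 0.07), with Nr0b2, the nuclear receptor SHP, at 1.59 (SE 0.66, adjusted p = 0.266). Among the 7 receptor and steroid supply genes 5 were higher (median 0.18), Akr1d1, which inactivates steroids, at 0.71 (0.37 without control replicate 3), and Serpina6, the plasma carrier of corticosteroids, at -0.37. Other glucocorticoid-induced genes had 5 of 14 higher (median -0.12), with 0 at an unadjusted p under 0.05.

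SM + MSTF versus control had 13 of 16 gluconeogenic genes higher (median 0.07), with Fbp2 at 0.73 and Gpi at 0.48 passing the unadjusted p. Glycolysis had 4 of 8 higher (median 0.03), amino acid breakdown 4 of 12 (median -0.03), signalling 12 of 20 (median 0.13), the receptor group 4 of 7 (median 0.05) and other glucocorticoid-induced genes 8 of 14 (median 0.17), beside 0.00 over all probes. Without replicate 3 these were 12 of 16 gluconeogenic genes (median 0.17), 7 of 8 of glycolysis (0.16), 7 of 12 of amino acid breakdown (0.03, the sign turned), 11 of 20 of signalling (0.05), 5 of 7 of the receptor group (0.20) and 8 of 14 of the glucocorticoid-induced genes (0.10). Named by the same rule were Cebpb, a transcription factor of the fasting and acute phase responses, at 0.88, Angptl4, an inhibitor of lipoprotein lipase, at 0.72, and Oat, ornithine aminotransferase, at -0.92. Oat had -0.54 without SM + MSTF replicate 3, and -1.67 for that 1 array against the controls on its slide (limma adjusted p = 0.0365, range over all alternatives 0.0365 to 0.808). Fbp2 was a dim probe, well above background on 2 of 3 controls, so it entered the test only through SM and SM + MSTF. Its difference was 0.18 with normexp in this comparison and 0.14 for SM versus control.

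SM + MSTF versus SM had the lists lower or near 0 except for other glucocorticoid-induced genes: 6 of 16 gluconeogenic genes were higher (median -0.08), 2 of 8 of glycolysis (median -0.19), 4 of 12 of amino acid breakdown (median -0.18), 10 of 20 of signalling (median 0.00), 3 of 7 of the receptor group (median -0.14) and 9 of 14 of the glucocorticoid-induced genes (median 0.22), beside -0.02 over all probes. Without replicate 3 the glucocorticoid-induced genes had 7 of 14 higher (median 0.05), and the other medians lay between -0.05 and 0.02. Angptl4 had the largest difference among those named, 1.17 (SE 0.26, limma adjusted p = 0.0697), and was 1.16 without replicate 3. Its SM + MSTF arrays measured 11.16, 12.02 and 11.62, above all controls (10.76 to 11.05) and all SM arrays (9.89 to 10.90). Pdk4, which holds back pyruvate oxidation, had 0.61 (0.41 to 0.98 with single arrays left out), Prodh -0.56, and Fkbp4, a receptor co-chaperone, -0.49, or -0.30 without replicate 3. Foxo3, a forkhead factor, had -0.44, but it entered the test only through SM, the group where it is higher, and had -0.081 with normexp. Prodh passed the test without SM replicate 4, at -0.70 (limma adjusted p = 0.0454, range over all alternatives 0.0454 to 0.353).

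In whole liver, fewer cells of a type and less RNA per cell cannot be told apart, so markers of other cells are given beside these genes. Of 9 Kupffer cell and macrophage markers, all tested and led by Clec4f, 0 were called by limma in any comparison, while 4 of 9 had an unadjusted p under 0.05 for SM + MSTF versus SM, against 15.9% of all probes. All 9 were lower in SM than in control (median -0.15), a count that rests on single arrays: SM replicate 2 was the lowest array for 7 of 9, and without it 5 of 9 were lower (median -0.03), while without control replicate 3 it was 6 of 9. All 9 were higher in SM + MSTF than in control (median 0.28) and than in SM (median 0.41), and with any 1 array left out at least 8 of 9 and 9 of 9 were. Their summed signal was 144519 on SM + MSTF replicate 3, 114154 and 134343 on the other SM + MSTF arrays, 70614 to 133140 in SM and 108141 to 138730 in control. Their part in the members' values was not tested.

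Hepatocyte markers, among them Tat, itself a member, and Hnf4a of the signalling list, had medians of -0.04, -0.02 and -0.02 in the 3 comparisons and a summed signal on SM + MSTF replicate 3 of 1358226, within the range of 1275864 to 1534113 over all arrays. Quantile normalization partly sets that sum, since its leading genes lie at the top of the range. At an unadjusted p under 0.05, Ttr (-0.49) and Apoa1 (-0.43) were lower in SM + MSTF than in control, and Ttr (-0.45) than in SM. Stellate cell markers (8 of 8 tested, led by Col3a1) summed to 12555 on SM + MSTF replicate 3, the lowest of all arrays, against 15212 to 21245. Passing the unadjusted p were Col1a1 (-0.99) and Rgs5 (0.70) for SM versus control, the same pair (-1.04 and 0.60) for SM + MSTF versus control, and Pdgfrb (-0.53) for SM + MSTF versus SM. Col1a1 measured 9.56, 11.16 and 9.20 on the SM + MSTF arrays, against 10.91 to 11.14 in control. Its difference for SM + MSTF versus control thus depends on which treated arrays are used. Sinusoidal endothelial markers (4 of 7 tested, led by Kdr) summed to between 22303 and 29184, the latter on that array. Erythroid markers (4 of 6, led by Hbb) summed to between 5343 in control replicate 1 and 22388 in SM replicate 2. The rest were sparse: neutrophil (2 of 7, led by S100a9) summed to 246 to 1545, T cell (3 of 7, led by Cd3d) to 371 to 797, B cell (2 of 6, led by Cd79b) to 33 to 142, and cholangiocyte (2 of 5, led by Epcam) to 359 to 970, lowest on SM + MSTF replicate 3. None of the 9 marker lists held a gene called by limma. At an unadjusted p under 0.05, SM versus control had 2 of 2 B cell markers lower (median -1.45) and 2 of 4 erythroid markers higher (list median 0.91), beside 16.4% of all probes in either direction. Control replicate 1 was the lowest array for 4 of 4 erythroid markers, and without it the list median was 0.53. Both B cell markers entered the test only through control, the group where they are higher.

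As a description of likeness, Ppargc1a, the member with the smallest p over the 3 groups (adjusted p = 0.376), was compared over the 10 arrays with 9188 named genes. The 5 most alike were Prxl2b (Pearson r 0.914), Prg4 (0.907), Tmem38b (0.905), Cfi (0.899) and Bpnt1 (0.897), and without SM + MSTF replicate 3 these values were between 0.871 and 0.930. For Fkbp5, chosen after its values were seen, the 5 were Pnn (0.968), Clec1b (0.962), RT1-T18 (0.947), Pnpt1 (0.938) and St3gal2 (0.927). Without SM + MSTF replicate 3 the same genes had 0.844, 0.858, 0.928, 0.709 and 0.527, so that some of this likeness rests on 1 array. With so few arrays and so many genes, high values are found for any gene, and nothing is read from them about shared control.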

How the data were processed

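RNA of 10 rat livers was read on one-colour Agilent arrays, 1 rat per array. Per the file headers, the scanner values are intensity from Agilent Feature Extraction 10.7, background-subtracted within each array. The authors also deposited log2 values, quantile normalized in GeneSpring, used here as an alternative. Spot intensities were quantile normalized across arrays, then put on the log2 scale, and the spots of a probe were averaged. In R 4.3.3, limma 3.58.1 (lmFit, eBayes) fitted 3 groups over 10 arrays, with Benjamini-Hochberg adjustment over 22991 tested probes, after a check on simulated data. Tested probes were well above background on at least 0.5 of their spots on every array of 1 or more groups, with at least 2 values per group. The brightest tested probe stands for a gene. List genes are named where called or, up to 4 per list and comparison, where largest among those with unadjusted p under 0.05. A listed gene of the glycolysis group is not reported here. Members and lists were chosen with earlier results of these data known. Alternatives changed scaling, background correction, filter, test, block and arrays. The number of arrays limits the precision.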

Additional observations from a re-analysis of the deposited data

Results flagged for a closer look

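In groups of 4 arrays, here the SM group alone, an array is set out where its gap to the nearest other array takes up most of the group's range. Of 135 probes of members and list genes tested this way 11 were set out, and chance gives about 1 in 20. Some ranges are narrow, so a large share can be a small difference.

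SM replicate 2 was set out for Akt2, at 2.04 against 6.19 to 6.42 log2 (gap 0.948 of the range), and for Bcl6, at 13.01 against 9.39 to 9.68 (0.920). The Akt2 probe was well above background on 3 of 4 SM arrays, so the size of its gap is uncertain. SM replicate 3 was set out for Foxo3, at 5.31 against 4.82 to 4.85 (0.949), for Tsc22d3, at 10.42 against 10.03 to 10.08 (0.857), and for Hsd11b1, at 15.34 against 15.80 to 15.85 (0.9005).

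SM replicate 1 was set out for Cyp2e1, at 16.12 against 15.31 to 15.40 (0.892), for Hnf4a, at 9.46 against 8.79 to 8.89 (0.846), for Pecam1, at 5.27 against 4.95 to 4.99 (0.8799), and for Sdsl, at 9.38 against 9.61 to 9.64 (0.883). SM replicate 4 was set out for Gapdh, at 15.95 against 15.60 to 15.62 (0.9625), and for Lyve1, at 11.61 against 11.06 to 11.12 (0.8798). The groups of 3, SM + MSTF among them, are too small for this measure.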

How the results depend on the processing

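Outside the settings that leave out an array, 499 of 519 single-gene values kept their direction and their side of the threshold, 13 turned sign and 7 newly passed: Fkbp5 and Oat with slide as a fixed block, where 1 treated array stands for its group, and Ppargc1a, Sgk1, Fbp2, Cebpb and Angptl4 with the unadjusted test of the study's methods. In each of these the cause was not tested. Turned values (log2) were, with another background correction (normexp), Tsc22d3 0.022 for SM versus control and Ppargc1a 0.033 for SM + MSTF versus SM; with the mean of a gene's probes, Tsc22d3 0.16 for SM versus control and Irs2 -0.075 for SM + MSTF versus control; with slide as a random block, Tsc22d3 0.064 and Pck1 0.053 in the same comparisons; with slide as a fixed block, Pck1 1.16, Sds 0.57 and Sgk1 -0.40 for SM + MSTF versus control. Normexp shrank dim probes without a turn: Ppargc1a 0.25 and Fbp2 0.14 for SM versus control, Ppargc1a 0.28 and Fbp2 0.18 for SM + MSTF versus control, Foxo3 -0.081 for SM + MSTF versus SM.

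With replicate number as a block, Tsc22d3 had 0.0047 for SM versus control, and Tat 0.038, Ppargc1a 0.023 and Sgk1 0.047 for SM + MSTF versus SM. Replicate numbers do not pair the arrays: deviations of same-numbered arrays correlated across probes at -0.0992 to 0.169 in 9 pairs, and in 8 of 18 pairings of an array with another group the most alike array had its own number.

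Probes called, SM versus control (552 in the fit described), were 217 with normexp, 342 without a filter, 337 among probes well above background on all arrays, 54 with the replicate block, 85 with the random slide block, and 1131 and 320 with the methods' test before and after adjustment. Probes called, SM + MSTF versus SM (290), were 58, 141 with all arrays well above background, 64, 102, 863 and 13. Probes called, SM + MSTF versus control (0), were 290 with the fixed slide block and 285 with the methods' test. Members called were 1 with the fixed slide block and 2 with the methods' test (SM versus control).

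Leaving out each array in turn, 479 of 510 values kept direction and side, 30 turned and 1 newly passed, and limma called 0 members throughout. Probes called, SM versus control, ranged over 61 to 714 (61 without control replicate 2, 102 without SM replicate 1), 0 to 248 for SM + MSTF versus control (248 without SM + MSTF replicate 3) and 96 to 291 for SM + MSTF versus SM (96 without SM replicate 1). Ranges of values that turned were, for SM versus control, G6pc1 -0.15 to 0.84, Fbp1 -0.018 to 0.059 and Tsc22d3 -0.13 to 0.20; for SM + MSTF versus control, Pck1 -0.77 to 0.31, Sds -0.505 to 0.064, Irs2 -0.77 to 0.56, Fkbp5 -0.40 to 0.45 and Tsc22d3 -0.29 to 0.33; for SM + MSTF versus SM, G6pc1 -0.036 to 0.46, Pck1 -0.38 to 0.70, Tat -0.26 to 0.10, Ppargc1a -0.58 to 0.56, Irs2 -0.29 to 1.04, Fkbp5 -0.14 to 0.71, Tsc22d3 -0.27 to 0.35 and Sgk1 -0.53 to 0.32. Wide without a turn were, for SM versus control, Pck1 -0.59 to -0.024, Tat 0.17 to 0.55, Sds -0.78 to -0.32, Irs2 -0.72 to -0.28 and Akr1d1 0.37 to 0.89. The same held for SM + MSTF versus control for G6pc1 0.069 to 1.06, Fbp1 0.085 to 0.22, Tat 0.097 to 0.50, Ppargc1a 0.53 to 1.67 and Sgk1 0.255 to 1.11. For SM + MSTF versus SM it held for Fbp1 0.067 to 0.20 and Sds 0.088 to 0.66. The list and marker counts with arrays left out, and the members' count at an unadjusted p without SM + MSTF replicate 3, were added after the data were seen.

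Ppargc1a has no value among probes well above background on all arrays, and the fixed slide block cannot be fitted for comparisons with SM, whose arrays fill 1 slide. Signal over background limits dim probes such as that of Ppargc1a. Probes without a RefSeq name were not searched for members.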
